A study of Mus musculus with 6 samples.

Results

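The 10 genes described here encode transcription factors grouped as factors of the secretory lineages of the small intestine, the Paneth, goblet and enteroendocrine cells; Spib, which is better known from B cells and M cells, is the least typical of them. They were taken by name (Atoh1, Gfi1, Spdef, Foxa3, Creb3l1, Creb3l4, Sox9, Spib, Xbp1 and Neurog3), and each was found as 1 probe set, so that 10 of the 19505 genes tested are members. Crypts were shaken off small intestines with EDTA once the villi had been scraped away, and their RNA, from mice of a C57bl/6 background, was hybridised to 1 Affymetrix array per sample, with 3 samples of CSN8fl/fl mice and 3 of CSN8ΔIEC mice. In CSN8fl/fl mice loxP sites flank Cops8, the gene of subunit CSN8 of the COP9 signalosome, which takes NEDD8 off cullin ubiquitin ligases. CSN8ΔIEC, by the genotype's name, lack that gene in intestinal epithelial cells; what drives the recombinase was not stated in the labels. In both genotypes replicates 1 and 2 were labelled females of 16 weeks and replicate 3 a male of 10 weeks; the labels call the samples biological replicates without saying that each is a separate mouse, so that p-values measure the spread between these samples. The study asked whether loss of CSN8 disturbs the production of antimicrobial peptides, which Paneth cells make.

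Secretory cells arise in the crypt where Notch signalling is low: Notch keeps progenitors absorptive through Hes1, and cells that escape it switch on Atoh1, on which all secretory cells of the intestine depend. Gfi1 then favours the goblet and Paneth fates over the enteroendocrine one, Neurog3 starts the enteroendocrine programme, Spdef and Foxa3 drive goblet maturation, and Sox9, a Wnt target, is needed for Paneth cells. Xbp1 and the membrane-bound factors Creb3l1 and Creb3l4 serve the secretory machinery of the endoplasmic reticulum and Golgi.

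Values are log2 signals, on which a difference of 1 is a 2-fold change. Replicates 1 to 3 of CSN8fl/fl had Cops8 signals of 8.26, 8.22 and 8.10, and those of CSN8ΔIEC 7.68, 7.61 and 7.77. The difference of −0.50 fell short of the threshold of 0.05 used throughout (limma adjusted p = 0.0865), and whether the probes lie in the deleted part was not stated in the labels. The labelled sex did not match the Y-linked signals: Eif2s3y was between 9.61 and 10.1 in the 4 libraries labelled female, and at 4.06 and 2.81 in the 2 labelled male. Library CSN8fl/fl replicate 3 stood apart, with Pearson correlations of 0.976 to 0.986 with the other libraries across all probe sets against up to 0.993 elsewhere, so results are also given without it where it matters. Markers of epithelium, the labelled tissue, were all measured and even between genotypes (10 of 10, 0 called, median difference 0.0022).

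One of the 10 factors, Spib, changed between genotypes, and it fell 3.79-fold in CSN8ΔIEC crypts. Among all genes tested, 0.702% fell and 0.374% rose, and none of the 10 factors rose. An unadjusted p under 0.05 for genotype (limma) was found for 2918 of the 19505 genes and for 4 of the 10 factors. Spib, Creb3l4, Spdef and Atoh1 had each CSN8ΔIEC value below each CSN8fl/fl value, 4 of the 10 factors, against 11.7% of all genes lower in that way; 10.7% of all genes were higher in that way and 0 of the 10. Differences ran from −1.92 to 0.22 with a median of −0.15, where the median over all genes was −0.011, and 8 of 10 were below 0. In bulk crypt RNA, fewer cells of a type and less RNA per cell cannot be told apart.

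**Figure D1:**
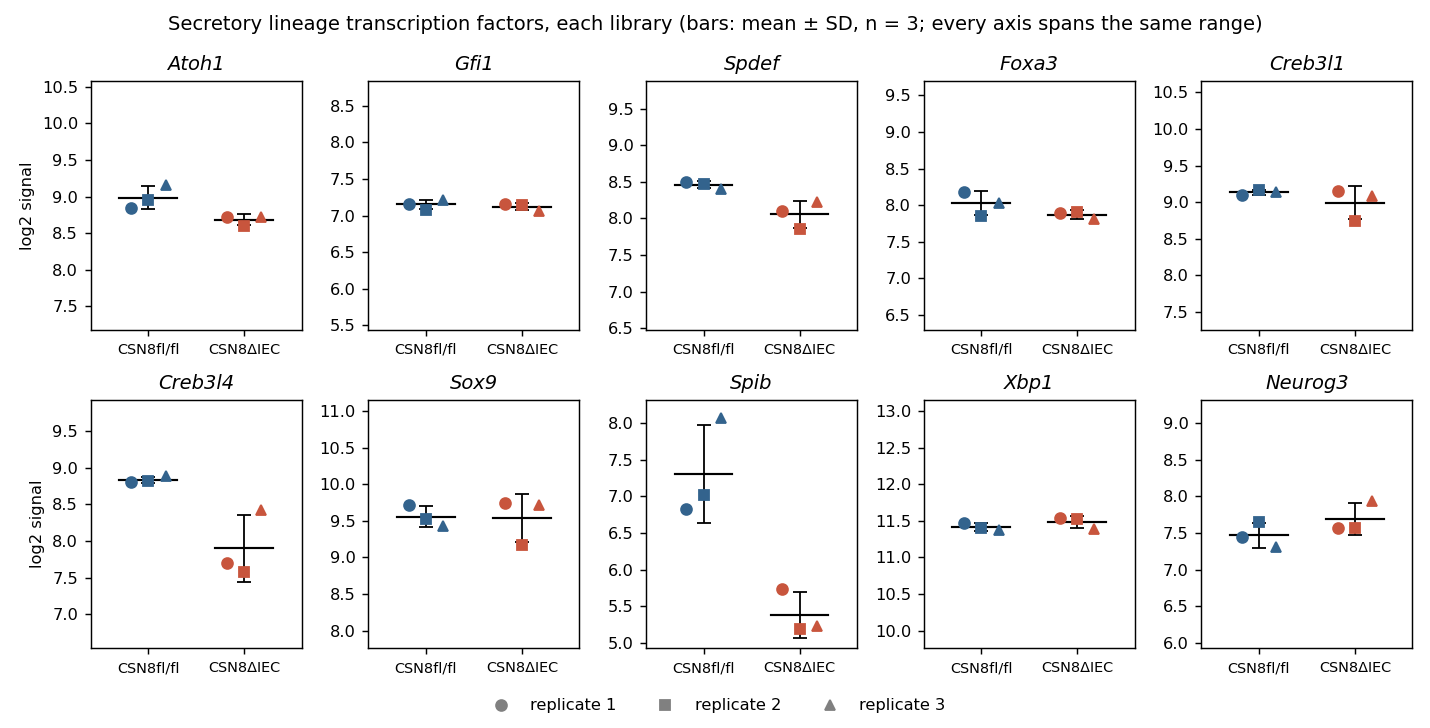
Log2 signal (vertical axis) of each of the 10 factors in every library, with CSN8fl/fl in blue and CSN8ΔIEC in red; the marker shape gives the replicate, and lines with bars are means ± SD (n = 3). Spib, Creb3l4, Spdef and Atoh1 do not overlap between genotypes, and CSN8fl/fl replicate 3 is the highest Spib library at 8.07.

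Atoh1 (NCBI gene 11921), the basic helix-loop-helix factor at the head of the secretory lineage, had signals of 8.84, 8.95 and 9.16 in CSN8fl/fl (replicates 1 to 3, as in all such series of values) and of 8.73, 8.60 and 8.72 in CSN8ΔIEC. All 3 CSN8ΔIEC libraries were lower, the closest by 8.84 against 8.73. The difference was −0.30 ± 0.13 (SE, n = 3 per group; 95% interval −0.58 to −0.015), which did not pass over all genes (limma adjusted p = 0.307), and without CSN8fl/fl replicate 3, the highest library, it was −0.21. Gfi1 (gene 14581), a zinc-finger repressor downstream of Atoh1, was at 7.17, 7.08 and 7.21 in CSN8fl/fl and at 7.16, 7.14 and 7.07 in CSN8ΔIEC. The groups overlapped fully, and the interval of the difference ran from 0.823 to 1.16 times the CSN8fl/fl level (adjusted p = 0.918).

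Factors of goblet and Paneth cell maturation differed among themselves. Spdef (gene 30051), an ETS factor, was at 8.50, 8.47 and 8.40 in CSN8fl/fl and at 8.09, 7.85 and 8.22 in CSN8ΔIEC. The CSN8fl/fl libraries lay close together and each was above each CSN8ΔIEC library. The difference of −0.40 ± 0.13 (95% interval −0.69 to −0.11) did not pass over all genes (limma adjusted p = 0.197). Foxa3 (gene 15377), a forkhead factor, was at 8.19, 7.86 and 8.04 against 7.89, 7.92 and 7.81, with overlapping groups and a difference of −0.15 ± 0.13 (limma adjusted p = 0.599), which became −0.075 on leaving out replicate 1 of CSN8fl/fl and −0.24 on leaving out its replicate 2. Creb3l1 (gene 26427), a bZIP factor that is cut free from its membrane in the Golgi, was at 9.10, 9.17 and 9.14 in CSN8fl/fl and at 9.15, 8.74 and 9.09 in CSN8ΔIEC. Only CSN8ΔIEC replicate 2 was clearly lower, and the difference of −0.14 was −0.016 without it and −0.22 without CSN8ΔIEC replicate 1.

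Creb3l4 (gene 78284) is a relative of Creb3l1. It was at 8.80, 8.82 and 8.89 in CSN8fl/fl, which lay close together, and at 7.70, 7.58 and 8.43 in CSN8ΔIEC. Replicates 1 and 2 of CSN8ΔIEC were low and replicate 3 lay between them and the controls. The difference of −0.93 ± 0.21 (95% interval −1.40 to −0.46), or 1.91-fold, did not pass over all genes (limma adjusted p = 0.0825). It passed without CSN8ΔIEC replicate 3, where the difference was −1.19 (adjusted p = 0.0162), with labelled sex and age in the model (0.0449) and in the 4 libraries labelled 16 weeks alone (0.0304), and over all alternatives tried the adjusted p ran from 0.0162 to 0.290. Within the libraries labelled 16 weeks the difference was −1.17, and between the single libraries labelled 10 weeks it was −0.46.

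Spib (gene 272382), an ETS factor known from B cells and from M cells, the antigen-sampling cells of the epithelium over lymphoid follicles, gave the largest difference of the 10. It was at 6.83, 7.02 and 8.07 in CSN8fl/fl and at 5.74, 5.18 and 5.22 in CSN8ΔIEC. Each CSN8fl/fl library was above each CSN8ΔIEC library, and CSN8fl/fl replicate 3 was far above the other two. The difference was −1.92 ± 0.30 (95% interval −2.61 to −1.23; limma adjusted p = 0.0258). It was −1.54 without CSN8fl/fl replicate 3 (adjusted p = 0.0215) and passed without CSN8fl/fl replicate 1 as well, but not without CSN8fl/fl replicate 2 (adjusted p = 0.0579), CSN8ΔIEC replicate 1 (0.0673), replicate 2 (0.0805) or replicate 3 (0.108). The difference was −1.46 within the libraries labelled 16 weeks (adjusted p = 0.0536) and −2.84 between the 2 labelled 10 weeks. Spib was above the median of the 19505 genes tested in 2 of 6 libraries, CSN8fl/fl replicates 2 and 3, and a filter that asked for 3 such libraries left it untested.

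Sox9 (gene 20682) was at 9.71, 9.53 and 9.43 in CSN8fl/fl and at 9.75, 9.17 and 9.72 in CSN8ΔIEC. The groups overlapped, the difference was −0.014 and changed sign when arrays were centred on their medians (0.011), and the interval ran from 0.753 to 1.30 times the CSN8fl/fl level. Xbp1 (gene 22433), which the stress sensor Ire1 activates by splicing its mRNA, was at 11.47, 11.40 and 11.38 against 11.54, 11.52 and 11.39, so that the groups overlapped. Its interval, from 0.878 to 1.25 times the CSN8fl/fl level, was among the narrowest of the 10; the difference of 0.066 was 0.040 without CSN8ΔIEC replicate 1 and 0.11 without CSN8ΔIEC replicate 3. The deposited signal is 1 value for the gene and does not separate spliced from unspliced Xbp1.

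Neurog3 (gene 11925), which starts the enteroendocrine programme, was at 7.44, 7.65 and 7.31 in CSN8fl/fl and at 7.57, 7.56 and 7.94 in CSN8ΔIEC. The groups overlapped, with CSN8ΔIEC replicate 3 the highest, and the difference of 0.22 ± 0.15 did not pass (limma adjusted p = 0.528) and was 0.14 without CSN8fl/fl replicate 3 and 0.096 without CSN8ΔIEC replicate 3. It was 0.63 between the libraries labelled 10 weeks and 0.017 within those labelled 16 weeks.

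**Figure D2:**
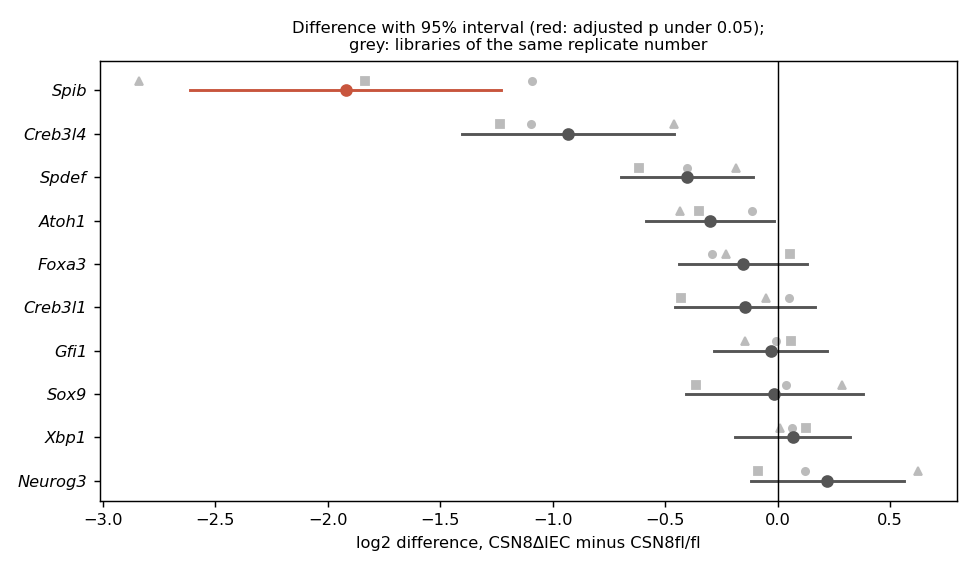
Log2 difference between genotypes (horizontal axis, CSN8ΔIEC minus CSN8fl/fl) for each factor as a point with its 95% interval, in red where the adjusted p was under 0.05, and in grey the differences between libraries of the same replicate number (circle 1, square 2, triangle 3). Spib lies at −1.92 and Creb3l4 at −0.93, while Gfi1, Sox9 and Xbp1 lie nearest to 0.

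Labelled sex and age together were compared with genotype in the model. None of the 10 factors passed (limma), 1 had an unadjusted p under 0.05, and 0.0154% of all genes passed; the largest difference was 0.45 ± 0.30 for Spib and the next 0.43 ± 0.17 for Creb3l4, both higher in the libraries labelled 10 weeks. The interaction of genotype with labelled sex and age gave no call among the 10 (limma), with 3 at an unadjusted p under 0.05, and no call among all genes, where 1974 had an unadjusted p under 0.05. Those 3 were Spib (−1.38, adjusted p = 0.421), Creb3l4 (0.71, adjusted p = 0.43) and Neurog3 (0.61, adjusted p = 0.48), so the larger Spib and smaller Creb3l4 difference between the libraries labelled 10 weeks, with 1 library per genotype, was not shown to differ from that at 16 weeks.

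The windows before the annotated starts of the 4 factors with non-overlapping groups are shown because these genes were lower side by side. They are the 250 bases upstream in RefSeq on GRCm38.p6: chr7:44532072-44532321 for Spib, chr3:90243513-90243762 for the most upstream of the 3 Creb3l4 starts, chr17:27728952-27729201 for Spdef, all on the minus strand, and chr6:64728875-64729124 for Atoh1 on the plus strand. Capitals mark 3 motifs on either strand. They are the E-box CANNTG bound by basic helix-loop-helix factors such as Atoh1, and the ETS core GGAA (TTCC) bound by ETS factors such as Spib. The last is ACGTG, which on the other strand reads CACGT, a core bound by bZIP factors such as Xbp1. No other ETS core was searched. No matches overlapped in these 4 windows.
Spib: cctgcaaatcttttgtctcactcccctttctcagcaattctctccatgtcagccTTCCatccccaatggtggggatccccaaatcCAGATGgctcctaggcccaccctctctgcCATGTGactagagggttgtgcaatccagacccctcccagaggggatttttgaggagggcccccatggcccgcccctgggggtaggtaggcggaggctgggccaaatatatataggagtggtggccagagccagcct
Creb3l4: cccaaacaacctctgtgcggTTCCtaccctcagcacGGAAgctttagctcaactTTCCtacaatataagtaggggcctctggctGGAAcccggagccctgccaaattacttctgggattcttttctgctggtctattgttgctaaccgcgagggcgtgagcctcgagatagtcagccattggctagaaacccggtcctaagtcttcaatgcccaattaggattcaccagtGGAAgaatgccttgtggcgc
Spdef: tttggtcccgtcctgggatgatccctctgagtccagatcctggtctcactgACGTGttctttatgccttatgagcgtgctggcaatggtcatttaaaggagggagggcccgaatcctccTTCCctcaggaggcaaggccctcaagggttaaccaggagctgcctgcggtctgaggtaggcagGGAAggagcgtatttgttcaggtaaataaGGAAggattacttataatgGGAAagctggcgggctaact
Atoh1: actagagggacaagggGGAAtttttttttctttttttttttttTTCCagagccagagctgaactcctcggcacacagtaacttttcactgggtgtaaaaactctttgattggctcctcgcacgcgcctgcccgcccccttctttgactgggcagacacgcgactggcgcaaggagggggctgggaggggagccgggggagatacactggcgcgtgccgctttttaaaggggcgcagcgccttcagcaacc
Spib held 2 E-boxes and 1 ETS core, this Creb3l4 window 5 ETS cores, Spdef 4 ETS cores and 1 ACGTG, and Atoh1 2 ETS cores. The next Creb3l4 window, not printed here, held 3 E-boxes and 3 ETS cores, and the last, also not printed, 3 ETS cores. Of all 32851 windows of this length, 66.2% held an E-box, 93.4% an ETS core and 16.6% ACGTG. The ETS core was thus in nearly every window, and the matches describe letters, not binding. Of the 10 factors, 8 had an entry in the promoter table.

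Other regulators around the 10 factors were read from lists of genes. Counts at an unadjusted p under 0.05, here and for the cell markers below, compare with 2918 of the 19505 genes tested (limma). Bhlha15, known as Mist1, a basic helix-loop-helix factor that enlarges the secretory apparatus of exocrine cells, fell 2.97-fold. It was at 7.95, 7.63 and 7.61 in CSN8fl/fl and at 6.47, 5.57 and 6.46 in CSN8ΔIEC, a difference of −1.57 ± 0.24 (limma adjusted p = 0.0223). The call was lost on leaving out CSN8ΔIEC replicate 1 (adjusted p = 0.0558) or CSN8fl/fl replicate 1 (0.052), 2 (0.0654) or 3 (0.0573), and in the 4 libraries labelled 16 weeks alone (0.0852). It was the 1 gene of 6 called in a list of CREB3 and other bZIP relatives, in which it is the only factor of another class; the bZIP factors of the list were not called, Creb3l2 differing by −0.67 (adjusted p = 0.282), or by −0.34 without CSN8fl/fl replicate 3.

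Of 7 transcription factors of the chemosensory tuft cells 1 fell and 0 rose. Pou2f3, on which tuft cells depend, was at 7.46, 7.68 and 8.84 in CSN8fl/fl and at 6.26, 6.33 and 6.32 in CSN8ΔIEC. It fell by 1.69 on the log2 scale, with an SE of 0.31 (limma adjusted p = 0.042), and by 1.27 without CSN8fl/fl replicate 3 (adjusted p = 0.00842). It did not pass without CSN8fl/fl replicate 2 (adjusted p = 0.0804) or CSN8ΔIEC replicates 1, 2 or 3 (0.157, 0.105 and 0.151), or when the table was quantile normalised again (0.0537). Ascl2, a stem cell factor on the same list, differed by 0.73 (adjusted p = 0.0983) and passed without CSN8fl/fl replicate 1 (0.0362).

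Of 19 enteroendocrine transcription factors measured, 1 fell and 0 rose, with a median of −0.086. The one was Prox1, a homeobox factor also known from lymphatic endothelium, which was at 6.93, 7.46 and 7.08 in CSN8fl/fl and at 5.84, 6.04 and 6.19 in CSN8ΔIEC (difference −1.13 ± 0.16, limma adjusted p = 0.0184). Prox1 was not called on leaving out CSN8ΔIEC replicate 1 (adjusted p = 0.0971) or 2 (0.0567), nor in the libraries labelled 16 weeks alone (0.0787). St18 differed by −1.32 ± 0.37 (adjusted p = 0.145), with CSN8fl/fl replicate 3 at 7.66 and the other CSN8fl/fl libraries at 6.12 and 6.32. It was −0.84 without that library, and it passed with labelled sex and age in the model (adjusted p = 0.0207) and in the libraries labelled 16 weeks alone (0.0484). Of 21 enteroendocrine cell markers 1 fell and 2 rose: the hormone genes Sst (−1.11, adjusted p = 0.0164), Tac1 (1.41, 0.0167) and Cck (0.79, 0.0487), but Sst did not pass without CSN8ΔIEC replicate 1 or 3 or in the libraries labelled 16 weeks alone (0.0995). Cck passed on leaving out CSN8ΔIEC replicate 2 but not on leaving out any of the other libraries, nor with labelled sex and age in the model (0.0521), after quantile normalisation (0.0576) or in the libraries labelled 16 weeks alone (0.229). The median of the 21 was −0.037, or 0.20 without CSN8fl/fl replicate 3.

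Upstream of Atoh1, the Notch pathway gave no call among 23 genes measured (limma), with 1 at an unadjusted p under 0.05 and a median difference of 0.018. The extremes were Dll3 (−0.35, adjusted p = 0.245) and Nrarp, a Notch target (0.50, adjusted p = 0.406), which became 0.79 on leaving out replicate 1 of CSN8fl/fl and 0.30 on leaving out its replicate 3. Hes1, the repressor of Atoh1, was chosen after its values were seen: it was at 8.46, 8.15 and 8.10 in CSN8fl/fl and at 8.35, 8.02 and 8.27 in CSN8ΔIEC (adjusted p = 0.955). Transcription factors of absorptive cells gave no call among 16, with 3 at an unadjusted p under 0.05 (median −0.085); Maf differed by −0.63 (adjusted p = 0.113) and Klf4, also known from goblet cells, by −0.66 (adjusted p = 0.223), or by −0.43 without CSN8ΔIEC replicate 3. The 14 ETS relatives of Spib and Spdef gave no call and none with an unadjusted p under 0.05, with Elf1 at −0.25 (adjusted p = 0.383).

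A list for the endoplasmic reticulum and unfolded protein response holds the Xbp1 target Dnajb9, but also sensors such as Ern2 and Atf6. It is thus not a readout of Xbp1 or the CREB3 factors alone. Of its 33 genes measured, 0 were called (limma) and the median was −0.015. An unadjusted p under 0.05 was found for 5 of the 33, against 2918 of all 19505 genes. The chaperone gene Dnajb9, a known Xbp1 target, was at 10.03, 9.43 and 10.35 against 9.40, 9.33 and 8.88, so that all 3 CSN8ΔIEC values were lower (difference −0.74 ± 0.24, adjusted p = 0.197). Ern2, which encodes the Ire1β sensor of goblet cells, differed by −0.47 (adjusted p = 0.242) and Edem1, of the degradation of misfolded proteins, by −0.34 (adjusted p = 0.264). Wnt targets, the class to which Sox9 belongs, gave no call among 12, with 6 at an unadjusted p under 0.05 (limma) and a median of 0.26; Cd44 differed by 1.06 (adjusted p = 0.0604), and rose without CSN8ΔIEC replicate 2 (adjusted p = 0.0205), with the filter on dim genes (0.0406) and with a robust variance trend (0.0362), while Ascl2, which this list also holds, rose without CSN8fl/fl replicate 1. The Wnt median was 0.12 without CSN8fl/fl replicate 3. Proliferation genes lay on the same side, with 19 of 19 differences above 0, 13 higher without overlap, 0 called and 10 with an unadjusted p under 0.05 (limma), and a median of 0.45, or 0.23 without CSN8fl/fl replicate 3, the lowest library at −0.71 from the mean. Stem cell markers, some of them also Wnt targets, had 11 of 14 differences above 0 and a median of 0.28. Of these 14, 1 fell and 0 rose (limma). On leaving out 1 library, 1 fell each time and 0 to 1 rose. The part of stem cell markers in the Wnt values was not tested.

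**Figure D3:**
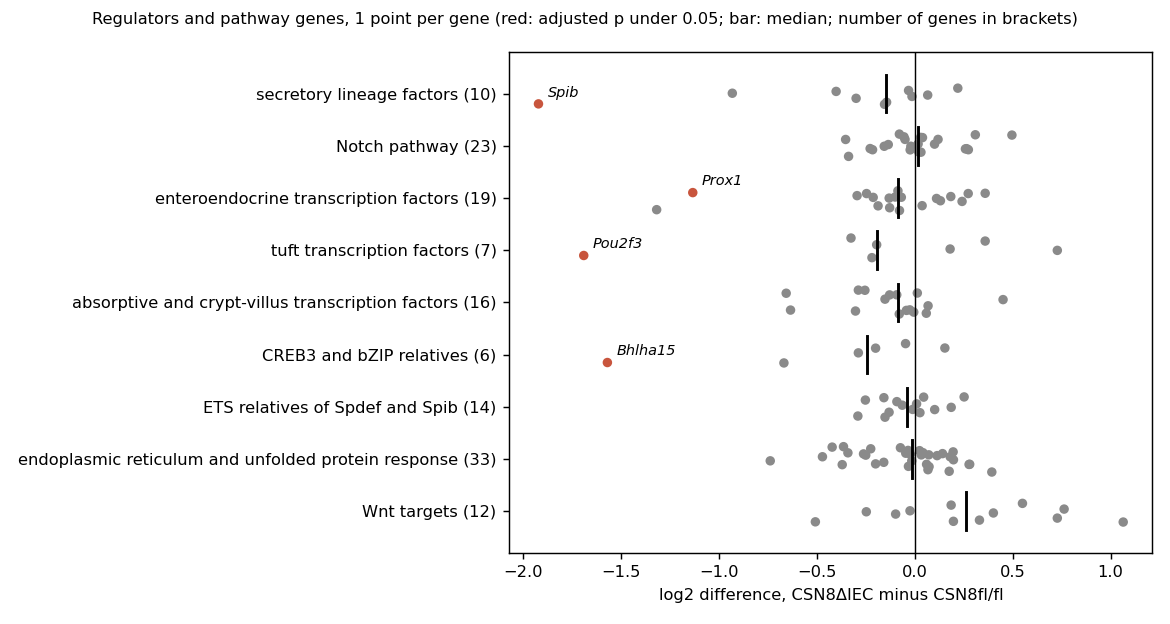
Log2 difference between genotypes (horizontal axis) of each gene in the secretory lineage factors and in 8 lists of related regulators and pathway genes, 1 point per gene, with called genes in red and the list's median as a black bar. Spib, Prox1, Pou2f3 and Bhlha15 are the called genes, all below 0.

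Markers of the cell types moved with several of these values, given here as the median deviation of a list's genes from their own means over the 6 libraries. Paneth cell markers (24 measured, 10 fell and 0 rose, 18 lower without overlap) lay between 0.51 and 0.59 in CSN8fl/fl and between −1.05 and −0.19 in CSN8ΔIEC, where replicate 2 was lowest and replicate 3 highest. Creb3l4 and Spdef had that same order within CSN8ΔIEC, but so did the goblet and tuft cell markers, so the order is not particular to Paneth cells. Goblet cell markers (20 measured, 8 fell and 0 rose, 12 lower without overlap) lay between 0.20 and 0.39 and between −0.37 and −0.17. Tuft cell markers (13 measured, 3 fell and 0 rose, 11 lower without overlap) lay at 0.19, 0.29 and 1.73 in CSN8fl/fl and between −0.85 and −0.58 in CSN8ΔIEC, and Spib and Pou2f3 were likewise highest in CSN8fl/fl replicate 3. Called markers numbered between 2 and 11 for Paneth, 1 and 5 for goblet and 0 and 6 for tuft cells when 1 library was left out, lowest without CSN8ΔIEC replicate 1 in each list and also without replicate 2 in goblet markers. The part of these markers in the results on the factors was not tested.

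B cells, which also express Spib, were followed with 15 markers, of which 0 were called (limma; 7 with an unadjusted p under 0.05) and 4 were lower and 1 higher without overlap (median difference −0.39). They lay at 0.32 and 0.27 in CSN8fl/fl replicates 1 and 2, at −0.11 in CSN8fl/fl replicate 3 and between −0.16 and −0.15 in CSN8ΔIEC. Ms4a1, which encodes CD20, was at 5.22 in CSN8fl/fl replicate 3, the library with the highest Spib signal. It was at 6.44 and 6.19 in CSN8fl/fl replicates 1 and 2. Without CSN8fl/fl replicate 3, 2 of the 15 B cell markers fell (limma). They were Ms4a1 (adjusted p = 0.0284) and Cd79a, a part of the B cell receptor (0.0112, chosen after its values were seen). Fcrla and Cr2 of the same list differed by −0.59 and −0.78 over all libraries (limma adjusted p = 0.0931 and 0.108). Without CSN8fl/fl replicate 3 they differed by −0.63 and −0.91 and were not called. Differences of the 15 markers ran from −0.87 to 1.51. M cell markers (9 measured, 0 called, 4 with an unadjusted p under 0.05 by limma) lay between 0.03 and 0.07 in CSN8fl/fl and between −0.07 and −0.02 in CSN8ΔIEC. They were split, with 2 lower and 2 higher without overlap and differences from −0.40 to 0.63. The M cell gene Gp2, chosen after its values were seen, was between 3.71 and 4.67 in all libraries. T cell markers (13 measured, 0 called, 2 with an unadjusted p under 0.05 by limma) were highest in CSN8fl/fl replicate 3, at 0.52. Replicates 1 and 2 of that genotype were at 0.05 and −0.20, and CSN8ΔIEC lay between −0.27 and 0.03. The part of B, M, T or tuft cells in the Spib signal was not tested.

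**Figure D4:**
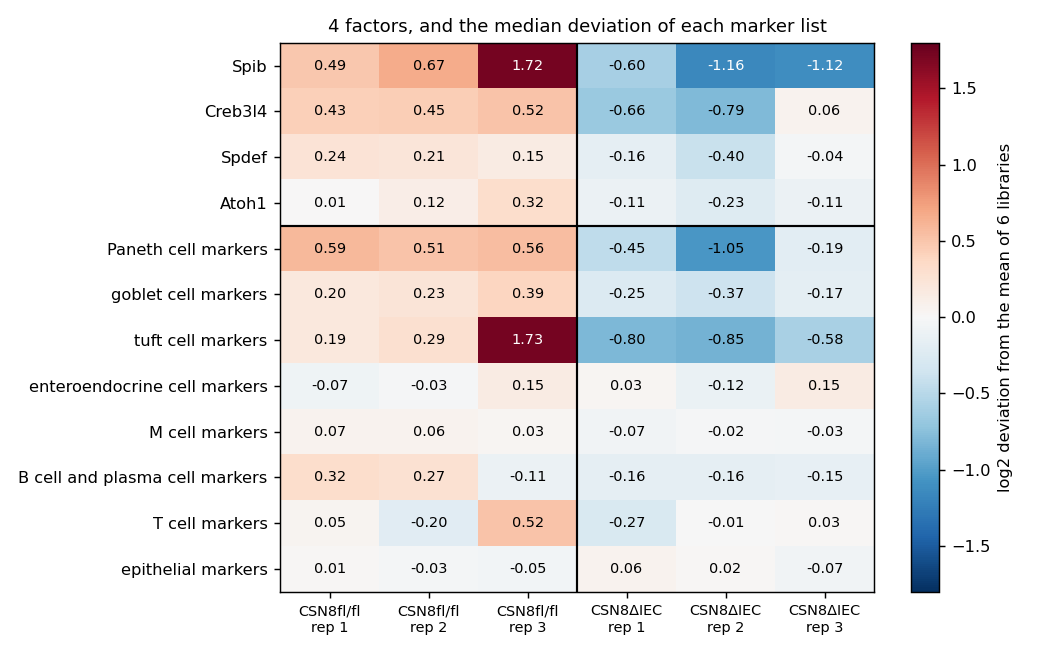
Log2 deviation of each library (columns) from the mean of the 6 libraries for Spib, Creb3l4, Spdef and Atoh1 (upper rows), and the median deviation over the genes of each marker list (lower rows); red is higher and blue lower. CSN8fl/fl replicate 3 is the highest library for Spib (1.72), tuft cell markers (1.73) and T cell markers (0.52), and its B cell markers are at −0.11.

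The genes whose signals ran most like those of the factors were sought among the other 327 listed genes measured, by Pearson correlation over the 6 libraries. The correlations are descriptions: they hold the genotype difference, and all genes of a library share its array. For Spib they were Scin (r = 0.997), an actin-severing protein listed with the goblet cell markers, the tuft cell marker Dclk1 (0.992) and Pou2f3 (0.977). With each genotype's mean subtracted they were 0.988, 0.955 and 0.884, values that lean largely on CSN8fl/fl replicate 3, where Spib was far above the other CSN8fl/fl libraries. Scin was at 11.2, 11.5 and 12.2 in CSN8fl/fl and at 10.6, 10.2 and 10.3 in CSN8ΔIEC, the same order of libraries as Spib.

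The same search for the other 3 factors with non-overlapping groups was added after the values were seen. Creb3l4 ran most like the Paneth cell genes Itln1 (r = 0.991), Mptx2 (0.985) and Defa17 (0.978), or 0.988, 0.948 and 0.905 with genotype means subtracted. Creb3l4 and Itln1 hardly varied within CSN8fl/fl (SD 0.045 and 0.018, against 0.46 and 0.25 in CSN8ΔIEC). The mean-subtracted values thus rest mainly on the CSN8ΔIEC libraries. Spdef ran most like the α-defensins Defa24, Defa17 and Defa22 (0.989, 0.989 and 0.985), which are near-identical copies and not independent. Atoh1 ran most like the tuft cell marker Hpgds (0.984), Scin (0.977) and Atf6, a sensor of the endoplasmic reticulum (0.977). Among the 10 factors themselves the highest correlations were 0.96 between Atoh1 and Spib and 0.95 between Spdef and Creb3l4, and Gfi1, whose values span only 7.07 to 7.21, ran opposite to Neurog3 (−0.92).

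**Figure D5:**
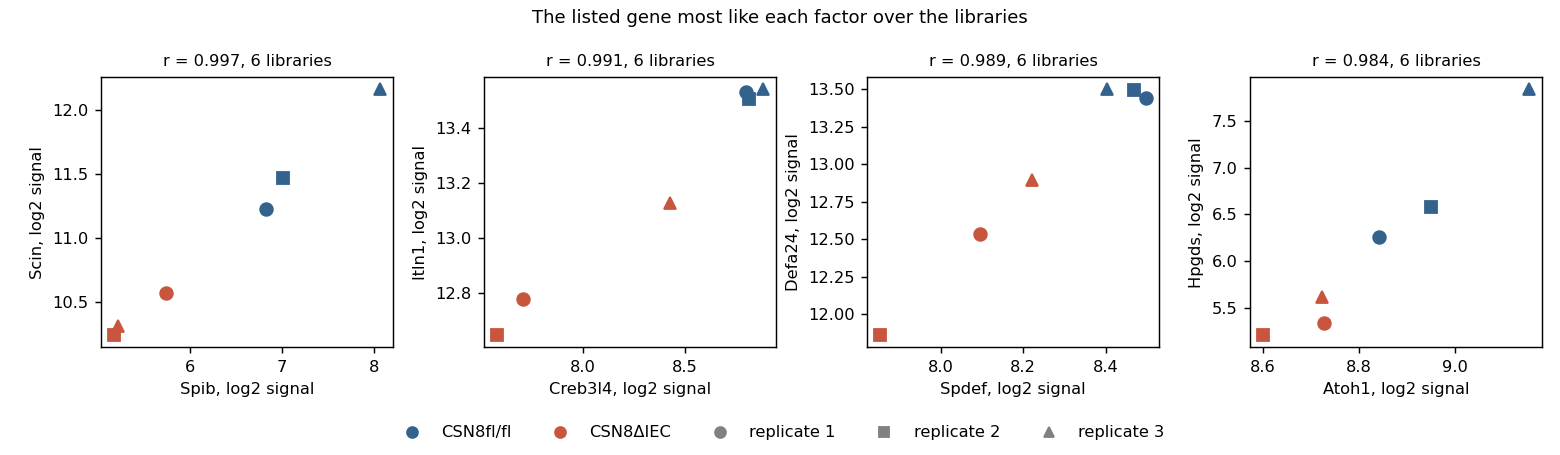
Log2 signal of Spib, Creb3l4, Spdef and Atoh1 (horizontal axes) against that of the listed gene most like each (vertical axes), 1 point per library, CSN8fl/fl in blue and CSN8ΔIEC in red, marker shape for the replicate. Scin follows Spib with r = 0.997 and Itln1 follows Creb3l4 with r = 0.991.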

How the data were processed

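RNA of 6 crypt samples was measured on Affymetrix arrays. The deposited values are log2 signals per probe set, made by the authors with RMA in Partek 6.6, per the submitters' processing notes. Genes were named through GEO's platform annotation: 19572 of 22206 probe sets had 1 symbol, 0 had several and 2634 had none and were left out. For the 55 genes with several probe sets the brightest was used, which gave 19505 genes. Differences were tested with limma 3.58.1 (lmFit, eBayes) in R 4.3.3, with Benjamini-Hochberg adjustment over all 19505 genes and a threshold of 0.05. The procedure was tested on simulated data. Signals have no counts, so 3 arrays a group limit the precision.

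The members and the lists of other regulators, markers and pathways were chosen with earlier results of these data known, so that their counts are descriptions. Listed genes without a named probe set were not analysed here. By rule, the text names the 10 factors, up to 4 genes of each list by smallest p, and the 3 listed genes most correlated with each factor past the threshold; others are said to be chosen afterwards. Replicate numbers were not used as pairs in the main fit: deviations from group means correlated by 0.117, −0.0243 and 0.0381 for numbers 1, 2 and 3. Such low correlations cannot exclude pairing, and replicate 3 of both genotypes shares its labelled age and sex. Alternatives were leaving out each library, the replicate number as a block, labelled sex and age as a covariate, a filter on dim genes, quantile normalisation, median centring, mean of probe sets, a robust variance trend and array weights. The 4 libraries labelled 16 weeks alone, and all alternatives for genes other than the 10, were added after seeing the data. Promoter windows are from RefSeq, GRCm38.p6.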

Additional observations from a re-analysis of the deposited data

How the results depend on the processing

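Of 149 values of the 10 factors under the alternatives, 137 kept the sign and the side of the threshold. Over all genes 210 passed, 41 to 228 when 1 library was left out (lowest without CSN8ΔIEC replicate 1) and 97 in the 4 libraries labelled 16 weeks alone. Of the 10 factors 1 passed, 0 to 1 with 1 library left out, 2 with labelled sex and age as a covariate (Spib and Creb3l4) and 0 with the filter on dim genes, which removes Spib. Without CSN8ΔIEC replicate 3 the 1 that passed was Creb3l4, not Spib. The signs of near-zero differences turned: Gfi1 was 0.026 in the libraries labelled 16 weeks alone; Sox9 ran from −0.12 to 0.18 with 1 library left out and was 0.011 after median centring; and Hes1 ran from −0.090 to 0.087 and was 0.0018. With the replicate number as a block, 202 genes passed (limma). Spib then had a limma adjusted p of 0.0352 and Creb3l4 of 0.073, while St18 passed (0.0336) and Cck did not (0.0856). Whether the numbers pair the samples was not settled. Some of these fits held fewer samples or genes, and the cause of the moves was not tested. Spib is dim in CSN8ΔIEC, where background limits how low a signal can read.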
